A study of Mus musculus with 11 samples.

Results

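Macrophages and other leukocytes of skeletal muscle were followed through 38 genes, listed by name, that are used as markers of these cells or of what they do. They cover the C1q genes of complement, pan-leukocyte genes, macrophage surface and lysosomal genes, Fc receptors and their adaptors, the phagocyte oxidase, antigen presentation, chemokines, and proteins of activated macrophages. All 38 were found among the 55487 gene rows of the count tables, and 27 of them were among the 10505 genes with enough counts to be tested. The measurements were 3' tag sequencing (QuantSeq, in which reads come from near the polyadenylated end of a transcript) of RNA from the gastrocnemius, a calf muscle, in 11 libraries.

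The 4 wild-type, 3 Raptor-knockout and 4 Raptor mTOR double-knockout libraries came from adult mice that, per the labels, were 3 months old when tamoxifen began. All 3 groups, wild type included, received tamoxifen, which was given in chow for 7 weeks, and muscle was taken 7 months after the start of treatment. Raptor knockout mice carried Raptor alleles between LoxP sites and a tamoxifen-dependent Cre recombinase (a fusion with a mutated estrogen receptor domain) under the human skeletal actin promoter, HSA. Double knockouts came from crossing such HSA-Cre Raptor fl/fl mice with mTOR fl/fl mice. This promoter is active in muscle fibres and not in leukocytes. The labels do not give the sex of the mice, whether wild-type mice carried the Cre transgene, or whether each library is a separate animal, so p-values measure the spread between these libraries.

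Tissue macrophages take up dead cells and debris, and they make C1q, the recognition unit of the classical complement pathway, which tags such material for uptake. Their Fc receptors bind antibody-coated particles and signal through adaptors that carry an activation motif called ITAM. The oxidase then makes superoxide in the phagosome, and peptides are loaded on MHC class II molecules and shown to T cells. In skeletal muscle, macrophages sit between the fibres in the connective tissue, clear damaged fibres and support their repair.

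Many myeloid genes are transcribed under the factor PU.1, whose binding sites hold the core GAGGAA, and MHC class II genes carry an upstream Y box, CTGATTGG. RefSeq promoter windows (GRCm38.p6) of 300 bases, from 250 bases before to 50 after the start of transcription, were found for 29 of the 38 genes, with 35 windows in all. Letters GAGGAA on either strand lay in 15 of the 35 windows, belonging to 14 genes, against 28.3% of all 32851 windows. The Y box letters lay in 3 of the 35, those of H2-Aa, H2-Eb1 and Spp1, against 4.1% of all windows, and the 2 motifs do not overlap each other. A match describes letters and is not a measured site. The 250 bases before the start are shown 5′ to 3′ for C1qb, Laptm5, Cd68 and H2-Aa. The first 3 rose in both knockouts and hold the PU.1 core, as does Mrc1, which is not shown. H2-Aa passed the test in neither. The core also lay in windows of genes that passed in neither, such as Cybb and Ctss. A link between motif and change was not tested. Capitals mark the motif or its reverse complement.
C1qb: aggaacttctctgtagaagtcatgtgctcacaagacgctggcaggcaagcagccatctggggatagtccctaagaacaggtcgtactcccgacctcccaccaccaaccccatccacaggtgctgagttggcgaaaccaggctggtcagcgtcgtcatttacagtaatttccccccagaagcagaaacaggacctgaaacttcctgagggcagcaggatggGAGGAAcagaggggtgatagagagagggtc
Laptm5: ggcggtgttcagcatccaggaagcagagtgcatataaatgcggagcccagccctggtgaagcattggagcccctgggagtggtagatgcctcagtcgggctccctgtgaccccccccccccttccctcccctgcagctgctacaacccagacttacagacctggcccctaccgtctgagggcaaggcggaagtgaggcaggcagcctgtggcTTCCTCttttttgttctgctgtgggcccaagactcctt
Cd68: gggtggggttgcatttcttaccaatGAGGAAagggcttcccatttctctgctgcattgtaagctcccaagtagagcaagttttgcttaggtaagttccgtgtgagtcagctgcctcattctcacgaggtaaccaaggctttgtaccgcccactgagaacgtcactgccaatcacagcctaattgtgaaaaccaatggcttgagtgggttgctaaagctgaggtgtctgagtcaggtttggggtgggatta
H2-Aa: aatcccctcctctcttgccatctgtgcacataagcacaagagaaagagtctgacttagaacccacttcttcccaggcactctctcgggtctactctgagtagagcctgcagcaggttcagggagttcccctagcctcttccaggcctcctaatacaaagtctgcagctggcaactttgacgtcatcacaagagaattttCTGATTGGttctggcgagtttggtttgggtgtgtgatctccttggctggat
These stretches are chr4:136886201-136886450 on the minus strand for C1qb, chr4:130913066-130913315 on the plus strand for Laptm5, chr11:69666171-69666420 on the minus strand for Cd68 and chr17:34287824-34288073 on the minus strand for H2-Aa. The core began 30 bases before the start site in C1qb, on the sense strand, and 38 before it in Laptm5, on the other strand. In Cd68 it began 225 bases before the start, with a second match inside the transcribed part that is not shown. The Y box of H2-Aa began 51 bases before its start.

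Library totals ran from 2791339 to 6328533 counts, and the 38 genes together held 14523 counts. All levels are counts-per-million values (CPM) after TMM scaling, which corrects library totals for composition, and n is 4, 3 and 4 for wild type, Raptor knockout and double knockout. The muscle label held: 8 muscle fibre markers summed to 85332 to 111047 CPM in each library. Rptor, which encodes Raptor, was lower in every knockout library (3.85 to 5.37 CPM) than in every wild-type library (8.57 to 10.6 CPM), while Mtor 3' tags stood at 31.8 to 39.5 CPM for the double knockout and 15.2 to 28.2 CPM for wild type. The sources used here do not give the LoxP positions, and tags at the 3' end do not check either deletion. The RNA that coats an inactive X chromosome, Xist, was present in replicates 1 to 3 of the double knockout and replicate 3 of wild type and was at or near 0 in the other 7 libraries, so no Raptor-knockout library held it. Raptor-knockout replicate 2 had the lowest level of its group for 23 of the 27 tested genes, against 41.6% of all tested genes, and it also had the highest red cell marker sum, 10014 CPM, against 1666 to 4700 CPM in the other 10 libraries. Double-knockout replicates 3 and 4 were sequenced in a smaller run than the other 9 libraries.

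Against wild type, 12 of the 27 tested genes rose in the double knockout and none fell (edgeR, adjusted p under 0.05). Over all tested genes 13% rose and 13.7% fell in this comparison. C1qb, C1qc, Laptm5, Cd68, Cd163, Mrc1, Lyz2, Fcgr2b, Fcgr3, Ccl6, Ccl9 and Lgals3 were the ones that rose. The median log2 fold change of the 27 was 0.82, against 0.02 for all tested genes, and 26 of the 27 were above 0. In 10 of them every double-knockout library lay above every wild-type library, which held for 13.1% of all tested genes. The count of 0 lower genes was also 0 at an unadjusted p under 0.05 and by DESeq2. In bulk muscle, a change in the number of cells of a type and a change in their RNA per cell cannot be told apart. The 12 became 6 without double-knockout replicate 1 and 6 without wild-type replicate 1, each time C1qb, Cd163, Cd68, Fcgr3, Laptm5 and Lgals3. They became 5 with presence of Xist as a covariate, and 1, Lgals3, in the 7 libraries without Xist, where the double knockout is 1 library assumed to vary like the others.

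In the Raptor knockout 7 of the 27 rose against the same 4 wild-type libraries, and none fell. Over all tested genes 8.73% rose and 9.43% fell. C1qb, Laptm5, Cd68, Mrc1, Lyz2, Lgals3 and Gpnmb rose, and the first 6 of these were also among the 12 of the double knockout. The median log2 fold change was 0.76, against 0.00 for all tested genes, and 25 of the 27 were above 0. In 6 of the 27 every Raptor-knockout library lay above every wild-type library, which held for 14% of all tested genes. None of the 27 lay wholly below wild type, against 13.2% of all tested genes. No gene was lower at an unadjusted p under 0.05, by edgeR or by DESeq2. The count was 1, Lgals3, without Raptor-knockout replicate 1, 4 without Raptor-knockout replicate 3, wild-type replicate 1 or wild-type replicate 2, and 10 without Raptor-knockout replicate 2. Because both comparisons share the wild-type libraries, their calls are set side by side and their overlap is not read as a result.

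**Figure D1:**
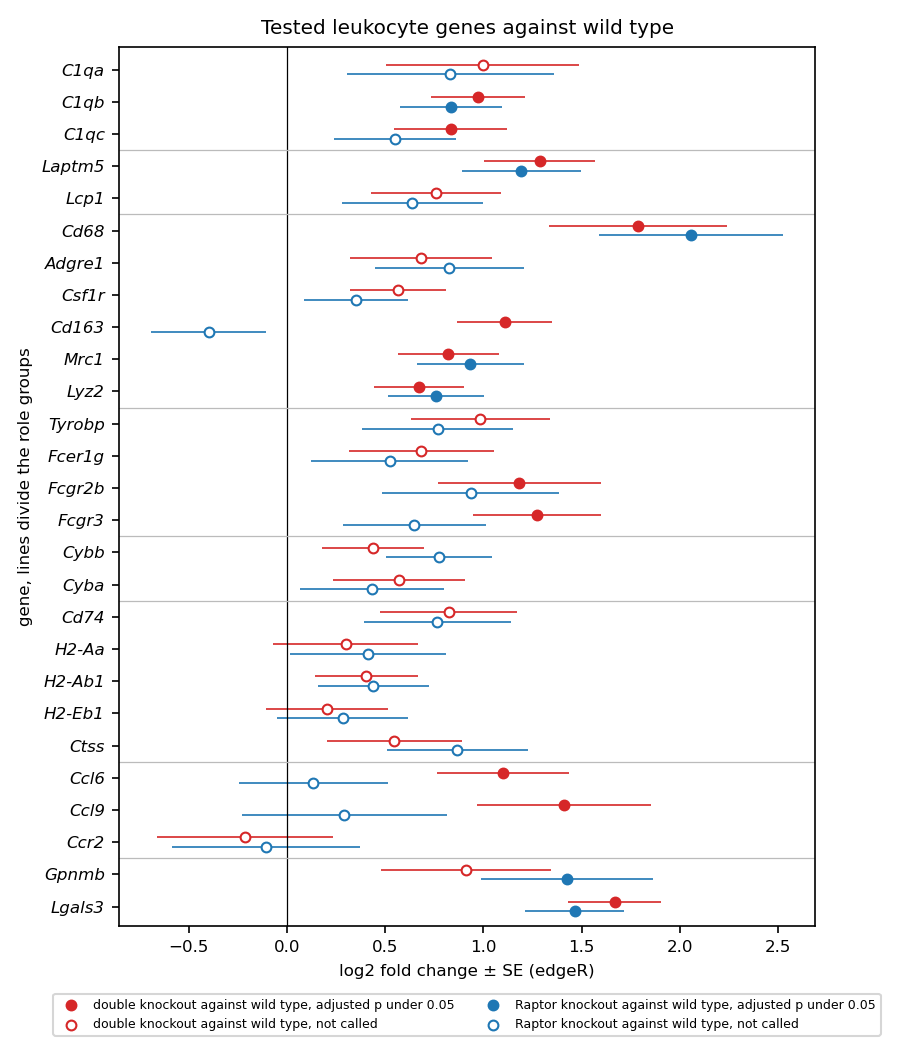
Log2 fold change (x axis, points with SE bars) of the 27 tested leukocyte genes (y axis, grouped by role) in the double knockout (red) and the Raptor knockout (blue) against wild type, with filled points for an edgeR adjusted p under 0.05. 26 red and 25 blue points lie above 0, and the filled points are spread over every role group except the oxidase and antigen presentation.

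The 3 C1q genes encode the chains of the C1q hexamer and lie within 18.7 kb of each other on GRCm38 chromosome 4 (136880129 to 136898803). C1qb stood at 9.66, 5.01, 8.72 and 11.3 CPM in wild type, 20.5, 10.02 and 16.7 in the Raptor knockout and 18.3, 17.2, 15.1 and 18.9 in the double knockout. All 4 double-knockout libraries were above wild type, while Raptor-knockout replicate 2 fell within the wild-type range. It rose by 0.97 ± 0.24 (log2 fold change ± SE) in the double knockout (edgeR adjusted p = 0.00706) and by 0.83 ± 0.26 in the Raptor knockout (edgeR adjusted p = 0.0353). C1qc stood at 10.8, 6.44, 14.3 and 12.4 CPM in wild type, 23.6, 10.02 and 15.9 in the Raptor knockout and 27.2, 23.2, 14.3 and 16.0 in the double knockout. Its double-knockout libraries reached down to the highest wild-type value without crossing it, and the Raptor knockout spanned both. C1qc rose in the double knockout (0.83 ± 0.29, edgeR adjusted p = 0.0419) and not in the Raptor knockout (0.55 ± 0.31, edgeR adjusted p = 0.239). C1qa had nearly the same mean changes, 0.996 ± 0.49 and 0.83 ± 0.53, with edgeR adjusted p-values of 0.168 and 0.313. Its wild-type replicate 4, at 31.6 CPM against 6.79 to 11.3 in the other 3, overlapped both knockouts.

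The C1q calls rested on few libraries. The C1qc call was lost without any 1 of double-knockout replicates 1 and 2, wild-type replicates 1, 2 and 4 or Raptor-knockout replicate 3 (edgeR adjusted p between 0.0564 and 0.138). For C1qb in the Raptor knockout, the call was lost without any 1 of Raptor-knockout replicates 1 and 3, wild-type replicates 2 and 3 or double-knockout replicate 1 (edgeR adjusted p between 0.0529 and 0.219). The C1qb call in the double knockout was kept whichever library was left out.

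Of the pan-leukocyte genes, Laptm5, which encodes a lysosomal membrane protein of blood cells, rose in both knockouts. It stood at 1.84, 3.22, 3.62 and 2.93 CPM in wild type, 8.72, 4.33 and 7.04 in the Raptor knockout and 7.59, 6.20, 8.22 and 6.68 in the double knockout. Every knockout library of both kinds was above every wild-type library. The log2 fold change was 1.29 ± 0.28 in the double knockout (edgeR adjusted p = 0.00294) and 1.19 ± 0.30 in the Raptor knockout (edgeR adjusted p = 0.0116), and the latter call was lost without Raptor-knockout replicate 1 (0.95, edgeR adjusted p = 0.093). Lcp1, the actin bundler L-plastin, had log2 fold changes of 0.76 ± 0.33 and 0.64 ± 0.36 and passed neither test (edgeR adjusted p = 0.105 and 0.236). Its 4 double-knockout values ran from 3.77 to 12.5 CPM, and the 12.5 belonged to replicate 3, which also had the highest neutrophil marker sum, 139 CPM against 3.79 to 20.02 elsewhere. Ptprc, which encodes the common leukocyte antigen CD45, had 3 to 18 counts per library and was not tested, like Coro1a, Cd52 and Itgb2. Ptprc averaged 2.12 ± 1.06 CPM for wild type, 3.03 ± 1.45 for the Raptor knockout and 1.41 ± 0.347 for the double knockout. Each knockout overlapped wild type, and all 4 double-knockout libraries (0.948 to 1.74 CPM) lay below all 3 Raptor-knockout libraries (1.76 to 4.61 CPM), narrowly at the nearest pair.

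Among macrophage surface and lysosomal genes, 4 of the 6 tested rose for the double knockout and 3 for the Raptor knockout. Cd68 encodes a glycosylated membrane protein of macrophage lysosomes. Its level was 1.84, 1.43, 1.15 and 1.58 CPM in wild type, 8.97, 1.35 and 8.51 in the Raptor knockout and 5.37, 4.85, 5.04 and 5.52 in the double knockout. The double knockout was uniform and wholly above wild type, whereas the Raptor knockout had a pair of high libraries and replicate 2 at the wild-type level. Cd68 rose by 1.78 ± 0.45 in the double knockout (edgeR adjusted p = 0.00812) and by 2.06 ± 0.47 in the Raptor knockout (edgeR adjusted p = 0.00581), and the latter became 1.69 with edgeR adjusted p = 0.0539 without Raptor-knockout replicate 1.

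Mrc1 encodes the mannose receptor, an endocytic receptor of resident macrophages. It stood at 7.36, 14.3, 13.5 and 6.54 CPM in wild type, 21.8, 13.5 and 24.1 in the Raptor knockout and 19.3, 20.2, 18.8 and 14.8 in the double knockout. Double-knockout libraries all exceeded wild type, the lowest of them narrowly, and Raptor-knockout replicate 2 lay inside the wild-type range. It rose by 0.82 ± 0.26 (edgeR adjusted p = 0.026) and 0.93 ± 0.27 (edgeR adjusted p = 0.0254) in the double and the Raptor knockout. Both Mrc1 calls were lost without wild-type replicate 1. The double-knockout call was also lost without wild-type replicate 4 or any 1 of double-knockout replicates 1 to 3, and the Raptor-knockout call without Raptor-knockout replicate 1 or 3 (edgeR adjusted p from 0.0512 to 0.123 over all of these).

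Lyz2, lysozyme M of myeloid cells, stood at 33.8, 23.6, 33.4 and 40.8 CPM for wild type, 81.0, 34.9 and 51.7 for the Raptor knockout and 62.6, 56.0, 49.6 and 43.0 for the double knockout. Again the double knockout lay above wild type without overlap and Raptor-knockout replicate 2 did not. Its rises of 0.67 ± 0.23 (edgeR adjusted p = 0.0407) and 0.76 ± 0.24 (edgeR adjusted p = 0.0432) were near the threshold, and each was lost without any 1 of Raptor-knockout replicate 3, wild-type replicates 1 to 3 or double-knockout replicates 1 to 3 (edgeR adjusted p from 0.0515 to 0.121). The Raptor-knockout call was also lost without Raptor-knockout replicate 1, where the change was 0.39 with edgeR adjusted p = 0.338. Its near-identical paralog Lyz1 averaged 2.86 CPM over all libraries, and reads could be split between the pair.

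Cd163, the scavenger receptor for haemoglobin bound to haptoglobin, rose in the double knockout. It stood at 4.37, 5.01, 8.22 and 5.86 CPM in wild type, 4.10, 5.96 and 3.52 in the Raptor knockout and 13.6, 15.6, 12.7 and 9.88 in the double knockout. All 4 double-knockout libraries lay above all 7 others, and the Raptor knockout overlapped wild type. Its log2 fold change was 1.11 ± 0.24 in the double knockout (edgeR adjusted p = 0.00288) and -0.40 ± 0.29 in the Raptor knockout (edgeR adjusted p = 0.375). Adgre1, the macrophage marker F4/80, and Csf1r, the receptor for colony-stimulating factor 1, had positive changes in both knockouts that passed no test. Those of Adgre1 were 0.68 ± 0.36 and 0.83 ± 0.38 and those of Csf1r 0.56 ± 0.25 and 0.35 ± 0.27 (double and Raptor knockout, edgeR adjusted p from 0.102 to 0.391). Csf1r overlaps Hmgxb3 on the opposite strand, which held 351 counts, and the strand setting of the counting was not given in the sources used here.

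Fc receptors of the low-affinity class bind antibody complexes. Fcgr3, the activating receptor, and Fcgr2b, the inhibitory one, lie within 106 kb of each other on chromosome 1 (170958617 to 171064935). Fcgr3 stood at 1.38, 3.22, 4.93 and 3.83 CPM in wild type, 5.64, 3.52 and 7.04 in the Raptor knockout and 9.80, 9.70, 7.69 and 6.10 in the double knockout. The double knockout lay wholly above wild type and the Raptor knockout between them, overlapping both. Fcgr3 rose by 1.27 ± 0.33 in the double knockout (edgeR adjusted p = 0.00855), and its change of 0.65 ± 0.36 in the Raptor knockout did not pass (edgeR adjusted p = 0.239). Fcgr2b stood at 2.76, 1.43, 3.45 and 2.705 CPM in wild type, 6.67, 1.62 and 7.34 in the Raptor knockout and 9.48, 6.46, 3.45 and 5.52 in the double knockout. Double-knockout replicate 3 was level with the highest wild-type library. Fcgr2b rose in the double knockout (1.18 ± 0.42, edgeR adjusted p = 0.0456), a call that was lost without any 1 of 7 libraries: double-knockout replicates 1, 2 and 4, wild-type replicates 1, 2 and 4, and Raptor-knockout replicate 1 (edgeR adjusted p between 0.055 and 0.159). In the Raptor knockout its change was 0.93 ± 0.45 (edgeR adjusted p = 0.168) and passed without Raptor-knockout replicate 2 (1.36, edgeR adjusted p = 0.0233). The receptors are similar in sequence, and reads shared by them could be split.

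Tyrobp and Fcer1g encode the adaptors that carry the ITAM. Tyrobp stood at 1.84 to 4.51 CPM for wild type, 2.98 to 7.95 for the Raptor knockout and 4.65 to 8.48 for the double knockout, so the double knockout lay just above wild type. Its double-knockout change of 0.98 ± 0.35 sat at the threshold without passing it (edgeR adjusted p = 0.05), and it passed in 9 of 22 alternative settings. Fcer1g, at 0.68 ± 0.37 and 0.52 ± 0.40, overlapped between all groups. Trem2, a lipid-sensing receptor that signals through Tyrobp, held 19 counts over all 11 libraries and was not tested.

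None of the phagocyte oxidase genes passed a test. Cybb, the catalytic subunit gp91phox, stood at 3.22, 3.22, 3.29 and 3.83 CPM in wild type, 5.90, 4.87 and 6.75 in the Raptor knockout and 5.06, 3.50, 5.83 and 4.07 in the double knockout. The Raptor knockout lay above wild type and the double knockout overlapped it. Its changes were 0.77 ± 0.27 in the Raptor knockout (edgeR adjusted p = 0.0558) and 0.44 ± 0.26 in the double knockout (edgeR adjusted p = 0.23), and the former passed without wild-type replicate 4 (0.84, edgeR adjusted p = 0.049). Cyba, the p22phox partner, stood at 2.53, 2.15, 1.97 and 4.06 CPM in wild type, 4.61, 2.44 and 3.82 in the Raptor knockout and 5.37, 4.58, 2.92 and 3.20 in the double knockout. All 3 groups overlapped, with changes of 0.57 ± 0.34 and 0.43 ± 0.37 in the double and Raptor knockout (edgeR adjusted p = 0.232 and 0.45). It overlaps the annotated gene Gm20388 on the opposite strand, which held 185 counts. Ncf1, the cytosolic organiser p47phox, had 2 to 8 counts per library and was not tested.

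Antigen presentation was the other role group with no call, 0 of 5 in each comparison. H2-Aa, H2-Ab1 and H2-Eb1 encode class II chains and lie within 59 kb on chromosome 17 (34257689 to 34316674). H2-Aa stood at 33.8, 15.7, 26.5 and 38.1 CPM in wild type, 56.7, 18.4 and 39.9 in the Raptor knockout and 38.2, 50.9, 32.1 and 20.3 in the double knockout. Cd74, the invariant chain that occupies the class II groove until peptide loading, stood at 19.1, 7.15, 15.8 and 21.2 CPM in wild type, 39.0, 14.1 and 29.1 in the Raptor knockout and 29.7, 39.9, 25.2 and 19.2 in the double knockout. For both genes all groups overlapped, and the spread inside the Raptor knockout was wider than that inside wild type. H2-Aa differed from wild type by 0.30 ± 0.37 in the double knockout, with an interval of -0.43 to 1.02 (a 95% interval from the SE), and by 0.41 ± 0.40 in the Raptor knockout, with an interval of -0.36 to 1.19. Cd74 differed by 0.82 ± 0.35 (interval 0.14 to 1.51, edgeR adjusted p = 0.103) and 0.77 ± 0.37 (interval 0.03 to 1.496, edgeR adjusted p = 0.182). The latter interval leaves out 0, although the edgeR unadjusted p was 0.0621. Without Raptor-knockout replicate 2, Cd74 passed in both (edgeR adjusted p = 0.0449 and 0.0386). The changes of H2-Ab1 and H2-Eb1 lay between 0.21 and 0.44, and those of Ctss, the protease cathepsin S that trims the invariant chain, were 0.55 ± 0.34 and 0.87 ± 0.36. The intervals of H2-Aa and Cd74 reach past 1 on the log2 scale, so the missing calls do not show equal levels.

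The CC chemokines Ccl6 and Ccl9, which are made by mouse myeloid cells and attract leukocytes, rose in the double knockout. They lie within 20.2 kb on chromosome 11 (83572919 to 83593087). Ccl6 stood at 8.05, 4.65, 19.1 and 9.69 CPM in wild type, 16.4, 9.20 and 9.98 in the Raptor knockout and 29.4, 21.3, 26.0 and 16.6 in the double knockout. Wild-type replicate 3, which held Xist, reached into the double-knockout range, and the other 3 did not. Ccl6 changed by 1.10 ± 0.34 in the double knockout (edgeR adjusted p = 0.0272) and by 0.13 ± 0.38 in the Raptor knockout (edgeR adjusted p = 0.85). Ccl9 stood at 1.61, 1.79, 4.61 and 3.16 CPM in wild type, 5.64, 2.44 and 2.64 in the Raptor knockout and 10.4, 10.8, 7.95 and 2.32 in the double knockout. The 3 high double-knockout libraries were those with Xist, and replicate 4, which lacked it, lay inside the wild-type range. Ccl9 changed by 1.41 ± 0.44 in the double knockout (edgeR adjusted p = 0.0284) and by 0.29 ± 0.52 in the Raptor knockout (edgeR adjusted p = 0.746). In the libraries without Xist its double-knockout change was 0.04 (edgeR adjusted p = 0.988). The Ccl6 call was lost without any 1 of double-knockout replicates 1 and 3 or wild-type replicates 1 and 4 (edgeR adjusted p between 0.0625 and 0.0788). The Ccl9 call was lost without any 1 of double-knockout replicates 1, 2 and 3 or wild-type replicates 1, 2 and 4 (edgeR adjusted p between 0.0552 and 0.0866). Ccr2, the receptor that brings monocytes into tissue, was the gene below 0 in both comparisons, at -0.21 ± 0.45 and -0.11 ± 0.48, and passed neither test.

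Lgals3 encodes galectin-3, a sugar-binding protein of activated macrophages that other cells also make. It stood at 8.97, 5.01, 9.87 and 6.09 CPM in wild type, 28.2, 18.4 and 17.0 in the Raptor knockout and 24.3, 30.7, 22.5 and 20.3 in the double knockout. All 7 knockout libraries lay far above all 4 wild-type libraries, and the knockouts overlapped each other. Lgals3 rose by 1.67 ± 0.23 in the double knockout (edgeR adjusted p = 7.44e-05) and by 1.46 ± 0.25 in the Raptor knockout (edgeR adjusted p = 0.000752). It was the gene of the 38 that passed in all 22 alternative settings in both comparisons. Gpnmb, a transmembrane glycoprotein of phagocytes full of lysosomal material, stood at 0.69, 0.715, 2.63 and 2.25 CPM in wild type, 6.67, 3.79 and 3.23 in the Raptor knockout and 4.42, 3.23, 2.65 and 2.62 in the double knockout. Its Raptor-knockout libraries were above wild type, and a pair of double-knockout libraries stood beside the highest wild-type ones. Gpnmb rose in the Raptor knockout (1.42 ± 0.44, edgeR adjusted p = 0.0333) and did not pass in the double knockout (0.91 ± 0.43, edgeR adjusted p = 0.134). The call was lost without any 1 of Raptor-knockout replicate 1 or wild-type replicates 1 and 2 (edgeR adjusted p between 0.0676 and 0.221). Spp1, the secreted osteopontin, had 0 to 12 counts per library and was not tested.

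**Figure D2:**
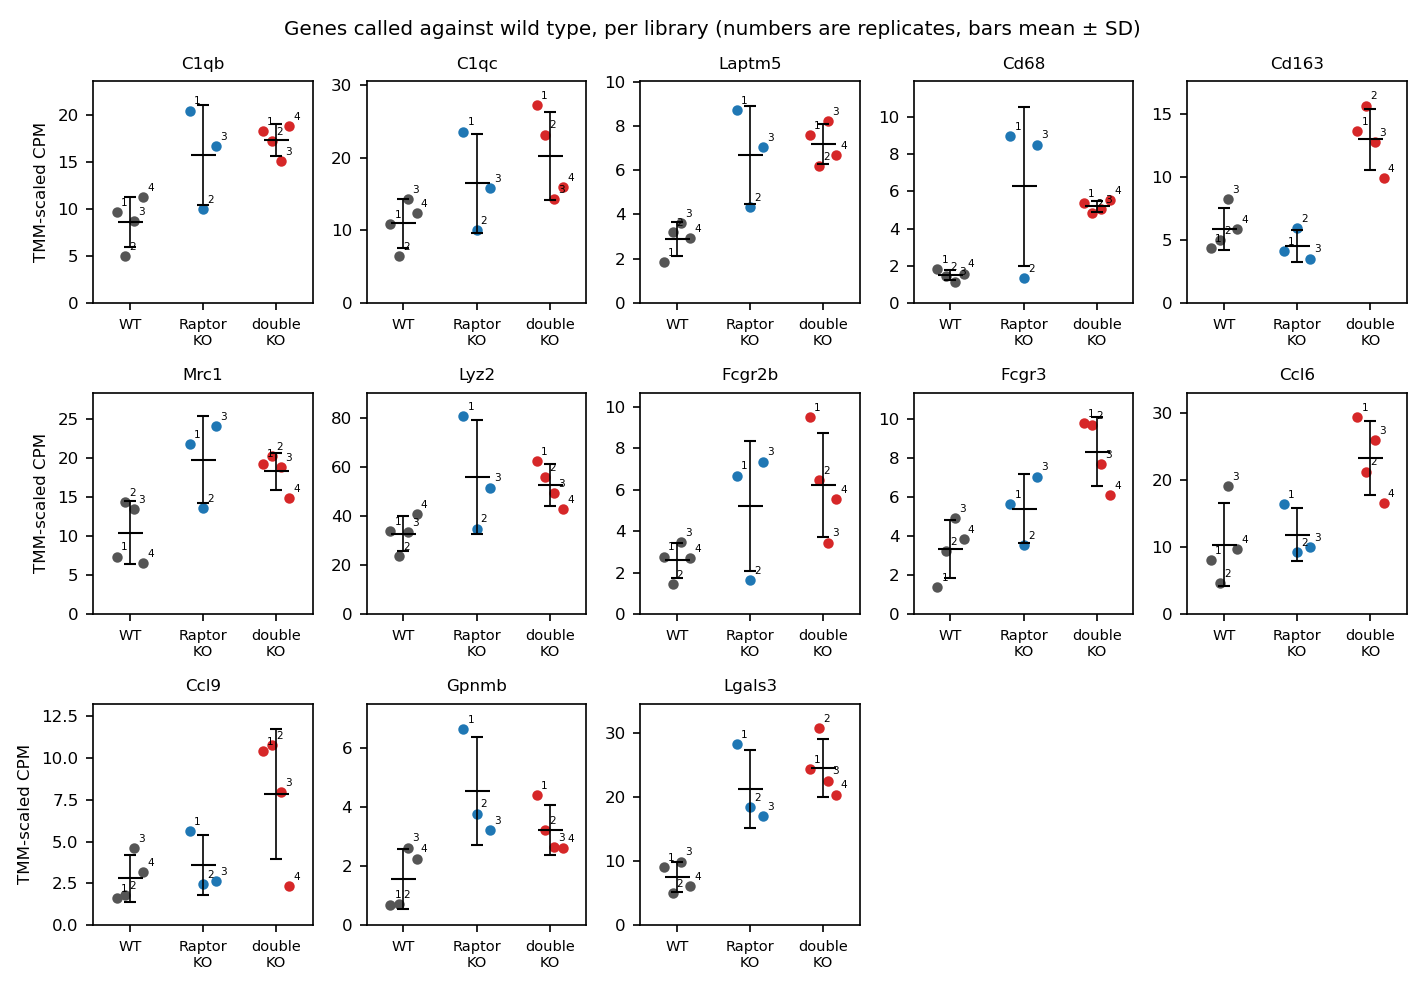
TMM-scaled CPM (y axis, from 0) of the 13 leukocyte genes called in either comparison with wild type, 1 panel a gene, with 1 numbered point per library and bars for mean ± SD in wild type, Raptor knockout and double knockout (x axis). Lgals3 and Laptm5 separate all knockout libraries from wild type, Cd163 is high in the 4 double-knockout libraries alone, and Raptor-knockout replicate 2 lies at the wild-type level of 1.15 to 1.84 CPM for Cd68.

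Between the 2 knockouts, none of the 27 genes passed the test in either direction (edgeR, adjusted p under 0.05). Of all tested genes 0.0286% passed, 0.00952% higher and 0.019% lower in the double knockout. At an unadjusted p under 0.05, 3 were higher in the double knockout, Cd163, Ccl6 and Ccl9, and 0 were lower, against 9.49% of all tested genes in both directions. DESeq2 called 1, Cd163, and also had 3 higher and 0 lower before adjustment. Cd163 was higher by 1.51 ± 0.28, with an interval of 0.96 to 2.06 and an edgeR adjusted p of 0.0791. It passed in 6 of the 22 alternatives, among them those without Raptor-knockout replicate 2, wild-type replicate 3 or wild-type replicate 4 (edgeR adjusted p between 0.0237 and 0.0465). By library, Cd163 and Ccl6 were the genes of the 27 whose double-knockout values all exceeded the Raptor-knockout values, against 5.18% of all tested genes, and none of the 27 showed the opposite, against 7.03%. Ccl6 differed by 0.96 ± 0.37 (edgeR adjusted p = 0.401) and Ccl9 by 1.12 ± 0.48 (edgeR adjusted p = 0.479). All 3 Raptor-knockout libraries lacked Xist and 3 of 4 double-knockout libraries held it. Double-knockout replicate 4, which lacked it and came from the smaller run, stood at 9.88 CPM for Cd163 and 16.6 for Ccl6. Both values were above each Raptor-knockout library, and its 2.32 CPM for Ccl9 was below each of them. Wild-type replicate 3, which held Xist, was the highest wild-type library for all 3 genes, at 8.22, 19.1 and 4.61 CPM in the same order. The part of Xist in these differences was not tested beyond the Xist alternatives.

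Summed over all 38 genes, the level was 237, 166, 260 and 294 CPM in wild type, 517, 243 and 402 in the Raptor knockout and 467, 481, 395 and 321 in the double knockout. The double knockout lay above wild type in every library, and Raptor-knockout replicate 2 was inside the wild-type range while replicate 1 was the highest of all 11. Group means stood at 1.74 times wild type in the double knockout and 1.62 times in the Raptor knockout. On the log2 scale these ratios were 0.80 and 0.69, and they became 0.46 for the double knockout in the libraries without Xist, and 0.43 or 0.94 for the Raptor knockout without its replicate 1 or 2. Double-knockout replicate 4 was the lowest of its group for 16 of the 27 tested genes, against 24.1% of all tested genes, and wild-type replicate 2 for 14, against 23.7%.

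The role groups differed in how evenly they moved. Spp1, Gpnmb and Lgals3 together went from 9.96 ± 3.06 CPM for wild type to 28.2 ± 7.83 for the Raptor knockout and 29.3 ± 5.81 for the double knockout, with no overlap between wild type and either knockout. Most of this sum was Lgals3, at means of 7.48, 21.2 and 24.5 CPM in the same order. Spp1 and Gpnmb were each above wild type in every Raptor-knockout library and overlapped it in the double knockout. The Fc receptor and adaptor sum was 12.7 ± 4.35, 22.3 ± 8.52 and 26.9 ± 3.60 CPM in the same order, and the macrophage surface sum 71.1 ± 11.6, 118 ± 35.6 and 122 ± 16.1. In these the double knockout lay above wild type and Raptor-knockout replicate 2 did not. The chemokine sum was 15.6 ± 7.99 CPM for wild type, 17.8 ± 5.93 for the Raptor knockout and 33.4 ± 9.67 for the double knockout, and the antigen presentation sum 77.1 ± 21.3, 112 ± 53.4 and 106 ± 31.8. Both of these overlapped between all pairs of groups. The mean pan-leukocyte sum itself stood at 1.83 times wild type in the double knockout and 1.82 times in the Raptor knockout. Of its 6 genes 2 were tested, Laptm5 and Lcp1, and Laptm5 was called in both knockouts. Divided by the pan-leukocyte sum of the same library, Cd68 was 0.1 to 0.146 in wild type, 0.0909 to 0.403 in the Raptor knockout and 0.158 to 0.388 in the double knockout. Of the 13 ratios to that sum, this was the one in which the double knockout stood wholly above wild type, and those of Lyz2, Mrc1, Cd163, Ccl6, Lgals3 and the 7 summed groups overlapped wild type. Cd163 over Mrc1 was 0.667 to 0.773 in the double knockout, 0.146 to 0.44 in the Raptor knockout and 0.35 to 0.897 in wild type, so the knockouts did not overlap, the double knockout lay inside the wild-type range, and Raptor-knockout replicates 1 and 3 lay below it.

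**Figure D3:**
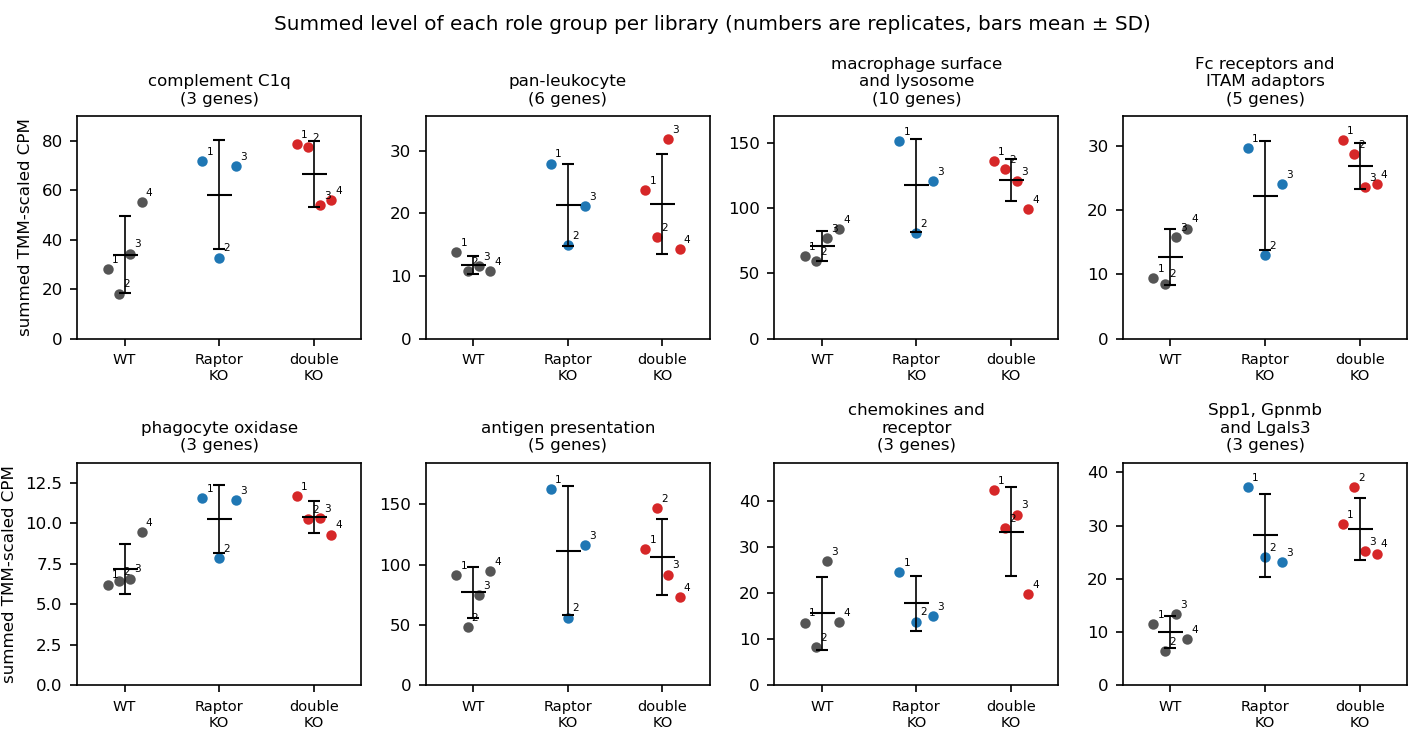
Summed TMM-scaled CPM (y axis, from 0) of each of the 8 role groups, with 1 numbered point per library and bars for mean ± SD in wild type, Raptor knockout and double knockout (x axis). The Spp1, Gpnmb and Lgals3 sum, most of it Lgals3, and, narrowly, the pan-leukocyte sum separate both knockouts from wild type. Raptor-knockout replicate 2 is the lowest of its group in every panel except that of Spp1, Gpnmb and Lgals3.

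The 11 genes that were too low to test held 651 counts together, and their sum was 7.66 to 13.1 CPM for wild type, 16.8 to 25.1 for the Raptor knockout and 9.30 to 21.5 for the double knockout. Ptprc, Coro1a, Cd52, Itgb2, Cd14, Ms4a7, Aif1, Itgam, Trem2, Ncf1 and Spp1 made up this set. Cd14, the co-receptor for bacterial lipopolysaccharide, stood at 0 to 1.07 CPM for wild type, 1.47 to 2.98 for the Raptor knockout and 0.291 to 2.65 for the double knockout. Aif1, the calcium-binding protein IBA1, stood at 0.676 to 0.987, 1.90 to 2.31 and 0.872 to 1.90 CPM in the same order. For both, the Raptor knockout was above wild type in every library and the double knockout overlapped it, on counts of at most 11 per library. Itgam, the integrin subunit CD11b, was likewise at 0 to 1.58, 2.35 to 2.56 and 0.872 to 3.16 CPM.

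Other genes of these pathways, taken from lists of named genes, were counted beside the members. The shares over all tested genes belong beside each list count from here on. They were 13% higher and 13.7% lower in the double knockout, and 8.73% higher and 9.43% lower in the Raptor knockout. Of 20 other complement genes 14 were tested, and 3 rose in the double knockout and 4 in the Raptor knockout, with none lower. Cd55, which dissociates complement convertases on cell surfaces, rose by 0.86 ± 0.25 and 1.64 ± 0.26 (edgeR adjusted p = 0.0199 and 0.000597). C1ra, a protease that joins C1q, rose in the double knockout (0.65 ± 0.19, edgeR adjusted p = 0.0163). Leaving out double-knockout replicate 3 ended the C1ra call in that comparison (edgeR adjusted p = 0.0562), and leaving out replicate 4 ended that of Cd55 (edgeR adjusted p = 0.0676). Both double-knockout calls were also lost with the sequencing run as a covariate and without the smaller run. That of C1ra was lost with Xist as a covariate too.

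Of 14 other genes of the class II pathway 6 were tested, and 3 rose in each knockout: Ifi30, Lgmn and Rfx5. Ifi30, a thiol reductase that unfolds antigen in the lysosome, stood at 5.75 to 17.3 CPM for wild type, 31.7 to 44.1 for the Raptor knockout and 68.3 to 138 for the double knockout, with no overlap between any pair of groups. It rose by 3.14 ± 0.34 in the double knockout (edgeR adjusted p = 2.56e-05) and by 1.92 ± 0.35 in the Raptor knockout (edgeR adjusted p = 0.00231), and the step between the knockouts, 1.22 ± 0.33, did not pass (edgeR adjusted p = 0.213). Lgmn, the lysosomal protease legumain, rose by 1.12 ± 0.25 and 1.26 ± 0.26 (edgeR adjusted p = 0.00326 and 0.00309). Rfx5, a factor that binds class II promoters, rose by 1.18 ± 0.28 and 1.20 ± 0.29 (edgeR adjusted p = 0.00464 and 0.00932). Lgmn and Rfx5 are also expressed outside leukocytes. Among 9 tested MHC class I pathway genes of 12, none passed in either knockout, B2m being at 0.37 ± 0.24 and 0.55 ± 0.26 and H2-D1 at 0.29 ± 0.19 and 0.48 ± 0.21.

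In the list of 18 other ITAM and phagocyte signalling genes, 5 were tested and 1 rose in the double knockout, Sirpa, the receptor for CD47, and 2 in the Raptor knockout, Sirpa and Irf5, a transcription factor of macrophages. Sirpa changed by 0.80 ± 0.26 (edgeR adjusted p = 0.0291) and 1.16 ± 0.27 (edgeR adjusted p = 0.00626), and Irf5 by 1.08 ± 0.43 (edgeR adjusted p = 0.0732) and 1.48 ± 0.43 (edgeR adjusted p = 0.0271). The Sirpa calls were lost without Raptor-knockout replicate 1 in the Raptor knockout (edgeR adjusted p = 0.0509) and without any 1 of double-knockout replicates 1 and 2 or wild-type replicate 2 in the double knockout (edgeR adjusted p between 0.0583 and 0.097). With Xist as a covariate the double-knockout call of Sirpa was lost too. The Irf5 call was lost without any 1 of Raptor-knockout replicates 1 and 3 or wild-type replicates 2 and 3 (edgeR adjusted p between 0.0568 and 0.101). Irf5 in the double knockout passed without its replicate 2 or 3 (edgeR adjusted p = 0.0338 and 0.0348). None of 3 tested oxidase partners of 6 passed, Rac1 being at -0.25 ± 0.14 and -0.24 ± 0.15 and Rap1a at 0.14 ± 0.13 and 0.40 ± 0.14.

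Resident muscle macrophage markers gave 2 higher of 10 tested in the double knockout and 1 in the Raptor knockout, with none lower. Over all tested genes 13% and 8.73% rose. The changes of these markers ran from -1.28 to 1.04 in the double knockout and from -1.06 to 2.25 in the Raptor knockout. Their sum overlapped between all groups, at 278 to 340 CPM for wild type, 244 to 370 for the Raptor knockout and 285 to 346 for the double knockout. Lyve1, a hyaluronan receptor of perivascular macrophages and lymphatic endothelium, stood at 10.1 to 25.7 CPM for wild type, 7.63 to 17.6 for the Raptor knockout and 32.1 to 49.3 for the double knockout. Like Cd163, it was above all other libraries in the double knockout, with changes of 1.04 ± 0.29 (edgeR adjusted p = 0.0152) and -0.48 ± 0.33 (edgeR adjusted p = 0.339) against wild type. The double-knockout call of Lyve1 was lost without double-knockout replicate 1 (edgeR adjusted p = 0.0539), with Xist as a covariate and without the smaller run. F13a1, a coagulation factor subunit made by macrophages, rose in the double knockout (0.76 ± 0.21, edgeR adjusted p = 0.0132), and without replicate 1 the edgeR adjusted p was 0.0503. The F13a1 call was also lost with Xist as a covariate. Gas6, a ligand that bridges dying cells to phagocyte receptors, rose in the Raptor knockout (0.89 ± 0.19, edgeR adjusted p = 0.00322). Of 12 tested genes of lipid-associated macrophages, 3 rose and 1 fell in the double knockout and 2 rose and 1 fell in the Raptor knockout. Cd63 and Ctsz rose in both, by 0.82 ± 0.20 and 0.87 ± 0.21 and by 0.97 ± 0.21 and 0.76 ± 0.23, and Lpl, a lipase that muscle fibres and adipocytes also make, changed by -0.94 ± 0.16 and -0.79 ± 0.17 (edgeR adjusted p from 0.000361 to 0.0319 over these 6 values). Leaving out Raptor-knockout replicate 1 or 3 ended the Raptor-knockout calls of Cd63 and Ctsz, and leaving out wild-type replicate 1 or 3 also ended that of Ctsz (edgeR adjusted p from 0.053 to 0.204). In the double knockout the Cd63 call was lost with the sequencing run as a covariate and without the smaller run.

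T and NK cell markers held 149 counts in all, whereas the B and plasma cell list held abundant immunoglobulin genes. Of 19 T and NK cell markers none was abundant enough to test and 5, Cd3g, Cd4, Ncr1, Gzmb and Klrb1c, had no count in any library. Their sum was 1.32 to 2.76 CPM for wild type, 4.60 to 7.18 for the Raptor knockout and 2.39 to 4.58 for the double knockout, most of it from Cd247. On these low counts the Raptor knockout was above wild type in every library and the double knockout overlapped it. B and plasma cell markers summed to 6.91 to 84.5, 4.33 to 35.4 and 2.91 to 14.3 CPM, and the 3 tested were Ighm, the heavy chain of IgM, Igkc, the kappa light chain, and Jchain, which joins IgM and IgA units. Ighm stood at 40.7, 35.4, 4.61 and 79.1 CPM in wild type, 10.5, 1.62 and 2.35 in the Raptor knockout and 3.16, 6.20, 2.39 and 1.74 in the double knockout. Wild-type replicate 3, which held Xist, was the low one of its group and lay within the range of both knockouts. The B cell surface genes Cd79a, Cd79b and Ms4a1 had 2, 6 and 1 counts in all and Cd22 none. In the double knockout Ighm fell, with a log2 fold change of -3.54 ± 0.92 (edgeR adjusted p = 0.0215), a call lost without any 1 of double-knockout replicates 1, 3 and 4 (edgeR adjusted p between 0.0503 and 0.0564). Ighm also lost this call with the sequencing run or Xist as a covariate and without the smaller run. In the Raptor knockout its change was -3.002 ± 0.97 (edgeR adjusted p = 0.0646), which passed without wild-type replicate 3 (edgeR adjusted p = 0.00385). Igkc and Jchain passed in neither comparison and did not follow Ighm closely. The median change of the 3 genes was -1.54 in the double knockout and 0.06 in the Raptor knockout, where 2 of them were above 0. Neutrophil, dendritic cell and mast cell markers gave no call in either comparison with wild type (edgeR, with 3 of 13, 2 of 10 and 5 of 8 tested). Of 10 monocyte markers 4 were tested, and 1 rose in the double knockout and none in the Raptor knockout, with none lower. That call was lost with Xist as a covariate.

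Markers of non-leukocytes also moved with genotype. Of 10 fibro-adipogenic markers, genes of the connective tissue cells of muscle, 7 rose for the double knockout and 4 for the Raptor knockout, and their sum was 701 to 1085 CPM for wild type, 1117 to 1183 for the Raptor knockout and 1206 to 1416 for the double knockout. None of these 10 was at 0. Col3a1, a fibrillar collagen, rose by 1.53 ± 0.24 and 1.52 ± 0.26 (edgeR adjusted p = 0.000394 and 0.00103). Endothelial markers gave no call in 8 tested of 9, at sums of 134 to 227, 145 to 174 and 135 to 169 CPM. Of the 5 red cell markers, Hbb-bt rose in the Raptor knockout (1.26 ± 0.39, edgeR adjusted p = 0.0476). None of the 5 lay wholly above wild type there. Their sum was 2177, 10014 and 4700 CPM in the Raptor knockout and 1666 to 3363 in wild type, so replicate 1 was within the wild-type range. The part of connective tissue, of blood and of sex in the changes of the 38 genes was not tested beyond the Xist alternatives.

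**Figure D4:**
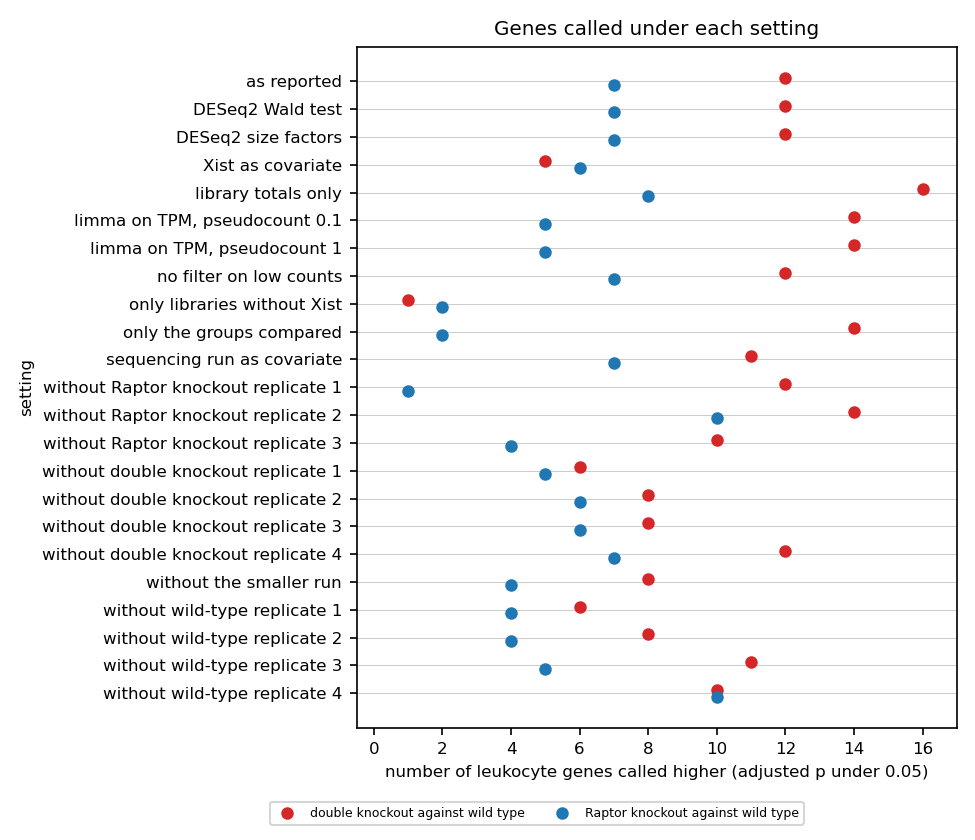
Number of leukocyte genes called higher (x axis) under each setting (y axis) in the double knockout (red) and the Raptor knockout (blue) against wild type. The reported 12 of the double knockout are lowest in the libraries without Xist, where the double knockout is 1 library. In the other settings they range from 5 to 16. The reported 7 of the Raptor knockout range from 1 to 10 and are lowest without Raptor-knockout replicate 1.

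DESeq2 in place of edgeR gave 12 and 7 genes higher in the double and the Raptor knockout, and DESeq2 size factors the same 12 and 7. Scaling by library totals alone gave 16 and 8, but moved the median of all tested genes to 0.25 and 0.20. Limma on the deposited TPM gave 14 and 5, and fitting only the groups compared gave 14 and 2. With the sequencing run as a covariate the counts were 11 and 7, and without the 2 libraries of the smaller run they were 8 and 4. Lgals3 passed in all 22 alternatives in both comparisons, and Laptm5 in 21 in each. In the double knockout C1qb and Cd163 passed in 21 and Cd68 and Fcgr3 in 20, while Lyz2, Ccl9 and Fcgr2b passed in 12, 12 and 11. In the Raptor knockout Cd68 passed in 19, Mrc1 in 15, Gpnmb in 14, C1qb in 13 and Lyz2 in 9.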

How the data were processed

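The deposited tables hold expected counts per gene in 2 sequencing runs and, for all 11 libraries, TPM. Per the submitters' processing notes, the authors used RSEM 1.3.3, STAR 2.7.0 and fastp 0.20.0 with GRCm38; the annotation release and the strand setting are not given in the sources used here. A further 6 columns fitted no sample label and stayed unused. Symbols were matched for 55141 of 55487 rows, and positions came from GENCODE M21. Counts were rounded (2.25% of values were not whole) and tested with edgeR 4.0.16 (R 4.3.3): filterByExpr, TMM, a robust quasi-likelihood fit of 3 groups over 11 libraries, and Benjamini-Hochberg adjustment over all 10505 genes, called under 0.05. The SE was the log2 fold change over the square root of F. The pipeline was checked on simulated data. Alternatives used DESeq2 1.42.0, limma 3.58.1 on log2 of the deposited TPM plus 1 or 0.1, other scaling, filters, covariates and libraries left out. Genes were named by rule: members called in any comparison or, in a role group without one, the 2 with the highest mean; from other lists, up to 3 with the smallest adjusted p. Values outside it were chosen after being seen. The members and lists were chosen with earlier results of these data known. Values of 2 genes of the other lists are not reported here.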

Additional observations from a re-analysis of the deposited data

Results flagged for a closer look

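Each group of 4 libraries was checked for a library whose gap to its nearest neighbour exceeded Dixon's 95% critical share of the group's range, for each tested gene and each summed list. Of 108 such groups 6 passed, and chance alone flags about 1 in 20. Wild-type replicate 4 stood apart for Lcp1 (4.51 CPM, with the other 3 at 3.91 to 3.95), for Cybb (3.83 CPM against 3.22 to 3.29) and for the phagocyte oxidase sum (9.47 CPM against 6.21 to 6.58). It also stood apart for the sum of dendritic cell markers, at 20.7 CPM against 11.3 to 12.4. Wild-type replicate 1 had the lowest sum of lipid-associated macrophage genes, 1415 CPM against 1717 to 1767 in the others. Double-knockout replicate 3 had a neutrophil marker sum of 139 CPM, against 5.23 to 18.3 in the other 3, led by S100a8 at 55.9 CPM and S100a9 at 61.8.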

How the results depend on the processing

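No paired analysis was possible because the replicate numbers only follow accession order and the labels tie no libraries together across groups. Each comparison was recomputed under 22 alternatives. No gene of the 38 was called lower under any of them. The 12 genes higher in the double knockout became 5 with Xist as a covariate, 1 in the libraries without Xist, and 6 to 14 with 1 library left out. The 7 higher in the Raptor knockout became 2 in the libraries without Xist, 2 when only the groups compared were fitted, 4 without the smaller run, and 1 to 10 with 1 library left out. Between the knockouts the count of 0 became 1, Cd163, with DESeq2, without the filter on low counts and when only the groups compared were fitted, and was 0 to 1 with 1 library left out. The following uncalled changes turned sign. H2-Aa in the double knockout was -0.56 in the libraries without Xist. In the Raptor knockout, with 1 library left out, Ccl6 ranged from -0.18 (without Raptor-knockout replicate 1) to 0.59, being -0.06 without wild-type replicate 2, and Ccl9 from -0.21 (without Raptor-knockout replicate 1) to 0.65. Between the knockouts, C1qc, Fcgr2b and Ccl9 were -0.0782, -0.0288 and -0.14 with Xist as a covariate. C1qc and Ccl9 were -0.0372 and -0.62 in the libraries without Xist, and Fcgr2b ranged from -0.18 (without Raptor-knockout replicate 2) to 0.56, being -0.01 without double-knockout replicate 1. The cause of these shifts was not tested, beyond the smaller number of libraries. Without the Xist libraries the double knockout is 1 library, assumed to vary like the other groups. Depth limits the lowest genes: 11 of 38 had too few counts to test. The sum of the deposited TPM, an alternative chosen after seeing the data, gave log2 ratios to wild type of 0.95 and 0.80.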
